A study of Mus musculus with 6 samples.

Results

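The MiT/TFE family holds the transcription factors MITF, TFEB, TFE3 and TFEC, and its activity is set at the lysosome by folliculin and the Rag GTPases. The genes described are the 4 factors (Mitf, Tfeb, Tfe3, Tfec), folliculin and its partners (Flcn, Fnip1, Fnip2), and the Rag GTPases that folliculin acts on (Rragc, Rragd). They were taken by name, and all 9 were found among the 16871 genes of the files, with reads in each of the 6 libraries. RNA was sequenced from bone marrow-derived macrophages, cells grown from the marrow of C57BL/6 mice aged 8 weeks and cultured for 7 days. All 6 cultures were then given oxidised low-density lipoprotein (oxLDL), which macrophages of atherosclerotic plaques take up, at a dose and for a time not given in the sources used here. The control group was knocked out for the LDL receptor (LKO, n = 3). The other group lacked both that receptor and ALDH2, a mitochondrial aldehyde dehydrogenase (DKO, n = 3). The LDL receptor knockout was thus common to both groups, no library without oxLDL was analysed here, and whether the replicates came from separate animals is not given. The p-values therefore measure the spread between these libraries, which may be technical.

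MiT/TFE proteins bind as dimers to the E-box CACGTG, and a longer form of it, the CLEAR element, lies upstream of many genes for lysosomal enzymes and autophagy. When nutrients are plentiful, Rag GTPases on the lysosome bring these factors to the kinase complex mTORC1, which phosphorylates them and keeps them in the cytoplasm. Folliculin, bound to FNIP1 or FNIP2, drives RagC and RagD into the nucleotide state in which they present the factors to mTORC1, so loss of folliculin sends TFEB and TFE3 to the nucleus. This control acts on the proteins, and an mRNA level does not show where a factor is or whether it is phosphorylated.

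Depth ran from 10760625 to 10987584 expected counts per library, over 14904 to 15048 listed genes. Aldh2, labelled as deleted in DKO, was at 241 ± 6.83 FPKM (fragments scaled to transcript length and library size) in LKO and 7.13 ± 0.181 FPKM in DKO (SD, n = 3 each). The macrophage markers were abundant, with 12 of 12 tested and a summed level of 10111 to 10830 FPKM in LKO and 11354 to 12556 in DKO. Of these, 7 rose and 1, Adgre1, fell, though 6 of 15 other fits did not call Adgre1. The sum mostly follows Lyz2, which was at 6105 ± 337 FPKM in LKO and 7616 ± 580 FPKM in DKO (SD, n = 3 each). That is a difference of 1511 FPKM, and the adjusted p of Lyz2 went up to 0.509 among the other fits. By the edgeR test described below, 14.3% of all genes tested were called, 7.42% higher and 6.88% lower in DKO. Markers of other marrow cells also moved with genotype. The summed neutrophil markers were at 601 to 663 FPKM in LKO and 384 to 426 in DKO, with 9 of 15 tested members lower and none higher. The summed stromal markers were at 54.2 to 59.5 FPKM in LKO and 78.3 to 104 in DKO, with 7 of 12 higher and 1, Lox, lower (not called in 6 of 15 other fits). Other calls of these 2 lists also depended on the fit. In either direction, DESeq2 called 6 neutrophil and 7 stromal markers, and limma on log2(FPKM + 1) called 8 and 4. In such bulk libraries, fewer cells of a type and less RNA per cell cannot be told apart.

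Between DKO and LKO, Mitf rose 1.36-fold and Fnip2 fell 1.19-fold, and the other 7 genes did not pass the test. The test was edgeR's quasi-likelihood test on the expected counts, with Benjamini-Hochberg adjustment over all genes tested and a threshold of 0.05. By this test 14.3% of all 11809 genes tested were called, 7.42% higher and 6.88% lower in DKO, against 2 of the 9 genes (22.2%), with 1 in each direction. Nothing particular to the family is read from so small a count. The 3 LKO and 3 DKO values did not overlap for 4 of the 9 genes (Mitf, Tfec, Fnip1 and Fnip2), and over all genes tested 29.6% showed no overlap. The median log2 fold change of the 9 was −0.09, beside 0.00018 over all genes tested.

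**Figure D1:**
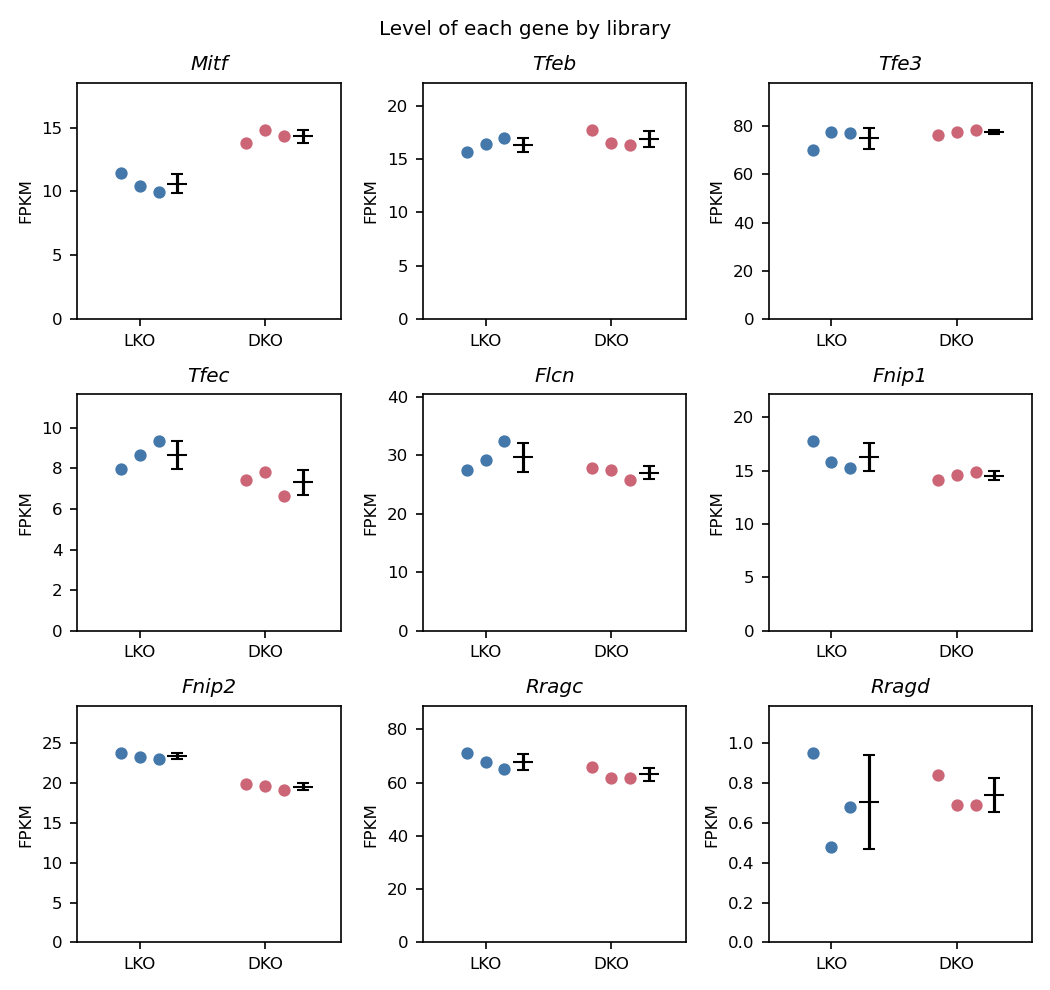
Level of each of the 9 genes in FPKM (vertical axis, from 0, its own scale in each panel) in the 3 LKO and 3 DKO libraries. Points are libraries and bars are the mean ± SD. The DKO points of Mitf, at 13.8 to 14.8, lie above the LKO points, at 9.99 to 11.4, and those of Fnip2, at 19.1 to 19.96, lie below the LKO points, at 23.1 to 23.8.

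Their levels spanned a wide range in these macrophages. In FPKM, which is per transcript length and so allows genes to be compared, the means over all 6 libraries fell in the order Tfe3 (76.2), Rragc (65.6), Flcn (28.3), Fnip2 (21.5), Tfeb (16.6), Fnip1 (15.4), Mitf (12.5), Tfec (7.98) and Rragd (0.722). Within a group, neighbours in this order overlapped for Tfe3 and Rragc and for Tfeb and Fnip1 in LKO, and for Fnip1 and Mitf in DKO. In the other group the libraries of each of these pairs stood apart, as did all other neighbours in both groups. Tfe3 stood at the 91.9 percentile of all genes tested, Mitf at the 58.3 percentile and Rragd at the 8.01 percentile.

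Mitf (NCBI gene 17342, chromosome 6), the family member that specifies melanocytes and acts in osteoclasts, mast cells and macrophages, was at 11.4, 10.4 and 9.99 FPKM in the 3 LKO libraries and at 13.8, 14.8 and 14.3 FPKM in the 3 DKO libraries. Every DKO library was above every LKO library. The means were 10.6 ± 0.732 for LKO and 14.3 ± 0.500 for DKO (SD, n = 3 each), resting on 531 to 799 counts per library. The log2 fold change was 0.44 (standard error 0.06, 95% interval 0.32 to 0.57, edgeR adjusted p = 2.43e-05). Under all 15 other fits the value stayed between 0.40 and 0.50, with adjusted p between 9.47e-07 and 0.0183. The files give 1 value per gene, so the forms of MITF that begin at different promoters, such as the melanocyte form, were not separated.

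Markers of 2 other cell types known for high MITF were looked up beside this rise. Of 10 melanocyte markers, 6 were at 0 in all libraries (Tyrp1, Dct, Mlana, Sox10, Slc45a2 and Oca2), and the summed level was 3.67 to 4.35 FPKM in LKO and 4.53 to 5.17 in DKO. Most of this was Tyr, the pigment enzyme tyrosinase, at 3.35 ± 0.286 FPKM in LKO and 4.05 ± 0.416 FPKM in DKO (SD, n = 3 each). Its edgeR adjusted p was 0.0429, its groups overlapped, and its call was lost in 12 of the 15 other fits, DESeq2 and limma among them. Of 11 mast cell and basophil markers, 4 were at 0 throughout (Tpsb2, Tpsab1, Mcpt4 and Cma1), and the summed level was 1 to 1.24 FPKM in LKO and 0.26 to 0.84 in DKO. Of the mast cell and basophil markers, 2 could be tested and neither was called. What part the shifts in macrophage, neutrophil and stromal markers had in the rise of Mitf was not tested.

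Tfe3 (gene 209446, chromosome X), the paralog that with TFEB answers to nutrient loss in most cells, was at 69.9, 77.5 and 77.2 FPKM in LKO and at 76.4, 77.7 and 78.4 in DKO. The groups overlapped, and the means were 74.8 ± 4.30 and 77.5 ± 1.0 (SD, n = 3 each). Its log2 fold change was 0.06 (95% interval −0.04 to 0.16, edgeR adjusted p = 0.472), so a change beyond 1.12-fold higher lay outside the interval. Tfeb (gene 21425, chromosome 17), the factor most often tied to the CLEAR network, was at 15.6, 16.4 and 16.9 FPKM in LKO and at 17.7, 16.5 and 16.3 in DKO. These groups overlapped too. The means were 16.3 ± 0.653 and 16.9 ± 0.751 (SD, n = 3 each), with a log2 fold change of 0.06 (95% interval −0.08 to 0.20, edgeR adjusted p = 0.628).

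Tfec (gene 21426, chromosome 6), a member whose expression is best known from macrophages, was at 7.95, 8.64 and 9.33 FPKM in LKO and at 7.44, 7.84 and 6.65 in DKO. All DKO values were under all LKO values, unlike those of Mitf. The means were 8.64 ± 0.690 and 7.31 ± 0.606 (SD, n = 3 each). The log2 fold change was −0.23 (95% interval −0.45 to −0.01), with an unadjusted p of 0.0445 and an edgeR adjusted p of 0.180, so Tfec did not pass over all genes. Its 129 to 178 counts per library make it, after Rragd, the most thinly covered of the 9.

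**Figure D2:**
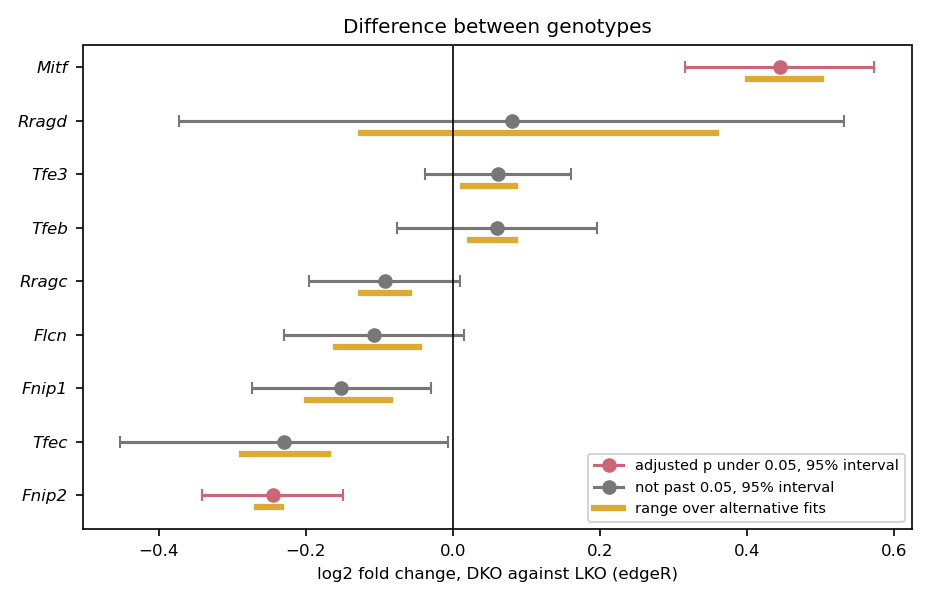
Log2 fold change of DKO against LKO (horizontal axis) for the 9 genes from edgeR, with the 95% interval as a line and the range over the other fits drawn beside it. The intervals of Mitf (0.32 to 0.57) and Fnip2 (−0.34 to −0.15) are those of the called genes, and Rragd has the widest interval (−0.37 to 0.53).

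The 4 factors were also set against each other, since they form homodimers and heterodimers within the family. Their summed level was 105, 113 and 113 FPKM in LKO and 115, 117 and 116 in DKO, with means of 110 ± 4.79 and 116 ± 0.790 (SD, n = 3 each). The groups did not overlap, and the exact two-sided permutation test over libraries gave p = 0.1, the smallest that 3 against 3 allows. Of the difference of 5.64 FPKM, Mitf gave 3.72, Tfe3 2.68, Tfeb 0.563 and Tfec −1.33.

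Mitf made up 10.9, 9.20 and 8.81% of the sum in LKO and 12.0, 12.7 and 12.4% in DKO. Its mean share was 9.63 ± 1.10% for LKO and, for DKO, 12.3 ± 0.352% (SD, n = 3 each), with no overlap (exact permutation p = 0.1, adjusted p = 0.35 over the 7 shares and ratios tested). Tfec held 7.58, 7.65 and 8.23% of the sum in LKO and 6.45, 6.71 and 5.75% in DKO. Its mean share was 7.82 ± 0.355% and 6.30 ± 0.496% (SD, n = 3 each), again with no overlap (exact permutation p = 0.1, adjusted p = 0.35). In these libraries Mitf thus stood higher and Tfec lower in the make-up of the family, each without overlap of the groups. Neither share passed the permutation test, in a design that cannot reach 0.05 by it. Tfe3 was the main part in both groups, at 67.8 ± 1.03% and 66.8 ± 0.829% (SD, n = 3 each; exact permutation p = 0.2, adjusted p = 0.467). Tfeb held 14.8 ± 0.232% and 14.5 ± 0.708% (SD, n = 3 each; exact permutation p = 0.8, adjusted p = 0.933).

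**Figure D3:**
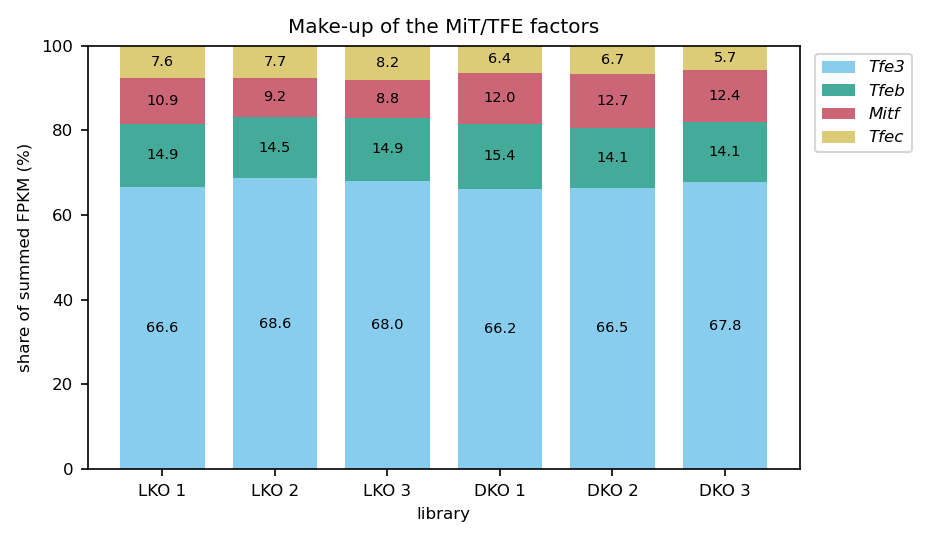
Share of Mitf, Tfeb, Tfe3 and Tfec in their summed FPKM (vertical axis, percent, from 0 to 100) in each of the 6 libraries. Tfe3 takes the largest part of each bar, the Mitf part is 8.81 to 10.9% in LKO and 12.0 to 12.7% in DKO, and the Tfec part is 7.58 to 8.23% in LKO and 5.75 to 6.71% in DKO.

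Flcn (gene 216805, chromosome 11) codes for folliculin, the tumour suppressor lost in Birt-Hogg-Dubé syndrome. It was at 27.5, 29.1 and 32.4 FPKM in LKO and at 27.8, 27.5 and 25.8 in DKO. The groups overlapped, with means of 29.7 ± 2.46 and 27.0 ± 1.07 (SD, n = 3 each) and a log2 fold change of −0.11 (95% interval −0.23 to 0.01, edgeR adjusted p = 0.263).

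Fnip2 (gene 329679, chromosome 3), which codes for one of the 2 partner proteins of folliculin, was at 23.8, 23.3 and 23.1 FPKM in LKO and at 19.96, 19.7 and 19.1 in DKO. Libraries of a group lay close together and the groups did not overlap. The means were 23.4 ± 0.356 and 19.6 ± 0.415 (SD, n = 3 each), on 1504 to 1867 counts per library. The log2 fold change was −0.24 (standard error 0.05, 95% interval −0.34 to −0.15, edgeR adjusted p = 0.000655), and adjusted p stayed between 0.000156 and 0.0146 in the 15 other fits. Fnip2, Flcn and Rragd had fractional counts in all 6 libraries, as arise where reads are divided among genes, so their levels are less certain than those of the other 6.

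Fnip1 (gene 216742, chromosome 11), the other partner, needed for B cell development, was at 17.7, 15.8 and 15.2 FPKM in LKO and at 14.1, 14.6 and 14.9 in DKO. All DKO values were lower than all LKO values, though the nearest were 14.9 and 15.2. The means were 16.3 ± 1.30 and 14.5 ± 0.412 (SD, n = 3 each), and the log2 fold change was −0.15 (95% interval −0.27 to −0.03, edgeR adjusted p = 0.0924). Of the fits run, Fnip1 passed only in that without LKO replicate 3, where the log2 fold change was −0.20 and the edgeR adjusted p 0.0404. The log2 ratio of Fnip1 to Fnip2 was −0.53 ± 0.09 for LKO and, for DKO, −0.43 ± 0.07 (SD, n = 3 each; exact permutation p = 0.3, adjusted p = 0.525).

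The Rag GTPases form pairs of RagA or RagB with RagC or RagD, and Rragc and Rragd code for the side that folliculin acts on. Rragc (gene 54170, chromosome 4) was at 71.1, 67.6 and 65.1 FPKM in LKO and at 66.1, 61.8 and 61.9 in DKO. The groups overlapped by 1 library in each, with means of 67.9 ± 3.02 and 63.2 ± 2.46 (SD, n = 3 each) and a log2 fold change of −0.09 (95% interval −0.20 to 0.01, edgeR adjusted p = 0.249). Rragd (gene 52187, chromosome 4), which is itself a known target of TFEB and MITF, was at 0.95, 0.48 and 0.68 FPKM in LKO and at 0.84, 0.69 and 0.69 in DKO. It was barely expressed, with 26.53 to 52.82 counts per library. Its log2 fold change of 0.08 had a 95% interval of −0.37 to 0.53 (edgeR adjusted p = 0.877), so at this depth a rise of Rragd of up to 1.45-fold lies within the interval.

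Rragc was therefore the main member of its pair, at 100.3 times the level of Rragd in LKO and 85.8 times in DKO (means of log2 ratios 6.65 ± 0.46 and 6.42 ± 0.11, SD, n = 3 each; exact permutation p = 0.5, adjusted p = 0.7). On the other side of the dimer, Rraga was at 30.1 ± 1.78 FPKM in LKO and 27.2 ± 0.576 FPKM in DKO (SD, n = 3 each; edgeR adjusted p = 0.163). Its partner paralog Rragb was near 0, with 1 to 6.94 counts per library, and was not tested. The log2 ratio of Rraga to Rragb was 7.85 ± 1.57 and 8.02 ± 0.31 (SD, n = 3 each; exact permutation p = 1, adjusted p = 1).

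The E-box through which these factors bind was looked for in the genes of the family itself. RefSeq promoters of GRCm38.p6, from 250 bases before to 50 after each start, were matched by NCBI gene number for 9 of 9 genes, with 14 promoters. The letters CACGTG, searched on both strands, were in 2 of the 14 (14.3%), those of Fnip1 and Rragc, and in 7.15% of all 32851 promoters. The longer TCACGTG, which contains it, was in the same 2 and in 3.77% of all promoters. The stretches around these copies are printed 5′ to 3′ on the gene's strand with CACGTG in capitals, because they are the promoter copies among the 9 genes. They lie at chr11:54438082-54438131 (plus strand, 75 bases before the start of Fnip1) and chr4:123917299-123917348 (plus strand, 112 bases before that of Rragc).
Fnip1: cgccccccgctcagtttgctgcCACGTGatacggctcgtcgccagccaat
Rragc: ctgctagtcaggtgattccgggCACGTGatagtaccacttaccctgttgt
Neither gene passed the test, and Mitf and Fnip2, which did, had no copy in these windows.

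The proteins upstream of the family were followed as lists, to be read beside the 14.3% called over all genes tested. Among the Rag, Ragulator and nutrient sensor genes, which anchor mTORC1 to the lysosome and report amino acids, 1 of 25 tested rose and none fell (4% called, median log2 fold change −0.03). The one was Castor2, a paralog of the arginine sensor gene Castor1, at 7.84 ± 0.220 FPKM in LKO and 9.73 ± 0.486 FPKM in DKO (SD, n = 3 each; log2 fold change 0.32, edgeR adjusted p = 0.0011). Of the 11 tested genes of mTORC1 and the TSC complex that restrains it, 0 were called by edgeR, DESeq2 or limma, and 1 was at an unadjusted edgeR p under 0.05. Their log2 fold changes lay between −0.24 and 0.14 with a median of −0.01, and the smallest edgeR adjusted p was 0.161.

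Among 22 kinases, phosphatases and anchors that act on MiT/TFE proteins, 1 rose and 1 fell (median log2 fold change −0.02). This was 9.09% called, beside 14.3% of all genes tested. Akt1, a kinase that phosphorylates TFEB, was at 108 ± 2.10 FPKM in LKO and 118 ± 4.04 FPKM in DKO (SD, n = 3 each; log2 fold change 0.14, edgeR adjusted p = 0.0278). This call was lost in 9 of the 15 other fits, with adjusted p up to 0.138. Prkcb, a protein kinase C that modifies TFEB in osteoclasts, was at 306 ± 14.5 FPKM and 270 ± 7.28 (SD, n = 3 each; log2 fold change −0.17, edgeR adjusted p = 0.00395). Unfiltered limma was the only fit that did not call it (adjusted p = 0.08).

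The genes downstream were followed in the same way. Of 39 CLEAR network genes with a lysosomal product, 10 rose and 2 fell in DKO (median log2 fold change 0.09). This was 30.8% called, beside 14.3% of all genes tested. The list holds abundant genes, in which small changes can pass. Lamp1, at 16280 to 18892 counts per library, was called at a log2 fold change of 0.15 (edgeR adjusted p = 0.00847). Genes of like abundance were not set beside the list, so what part abundance had in this share was not tested. Named by smallest p, the risen ones began with the aspartic protease gene Ctsd, at 1907 ± 6.32 FPKM in LKO and 2364 ± 66.1 FPKM in DKO (SD, n = 3 each; log2 fold change 0.32, edgeR adjusted p = 8.47e-07). Lipa, which codes for the acid lipase that frees cholesterol from lipoprotein esters, was at 214 ± 4.22 and 251 ± 6.52 FPKM (SD, n = 3 each; log2 fold change 0.24, edgeR adjusted p = 0.000165). Smpd1, the gene of acid sphingomyelinase, was at 11.02 ± 0.682 and 14.0 ± 0.606 FPKM (SD, n = 3 each; log2 fold change 0.36, edgeR adjusted p = 0.00142). These 3 rises thus range over a protease, a lipase and a sphingolipid enzyme.

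Ctsb, the gene of cathepsin B, rose with them (log2 fold change 0.18, edgeR adjusted p = 0.00264) but did not pass in unfiltered limma (adjusted p = 0.14). The other 6 that rose, which were named after their values were seen, were Glb1, Lamp1, Lamp2, Naglu, Sgsh and Sumf1, with log2 fold changes between 0.14 and 0.28. Of these, Glb1 kept its call in every fit, Lamp1 lost it in 2 of 15, Naglu in 1, Lamp2 in 4, Sumf1 in 6 and Sgsh in 13. Of the 2 that fell, Gusb, the gene of beta-glucuronidase, was at 116 ± 3.97 FPKM in LKO and 100.4 ± 2.76 FPKM in DKO (SD, n = 3 each; log2 fold change −0.19, edgeR adjusted p = 0.00495). The macrophage markers that rose in DKO stand beside this list, and what part they had in it was not tested.

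Of 18 CLEAR network autophagy genes tested, 2 rose and 1 fell (median log2 fold change 0.01). This was 16.7% called, near the 14.3% of all genes tested. Sqstm1, the gene of the cargo receptor p62, was at 166 ± 7.33 FPKM in LKO and 193 ± 5.05 FPKM in DKO (SD, n = 3 each; log2 fold change 0.23, edgeR adjusted p = 0.000849). Ulk1, the kinase that starts autophagy, was at 16.5 ± 1.63 and 19.96 ± 0.666 FPKM (SD, n = 3 each; log2 fold change 0.29, edgeR adjusted p = 0.0024), and it was not called by limma unfiltered (adjusted p = 0.104) or with quantile normalization (adjusted p = 0.0518). Vps33a, a part of the HOPS complex that tethers autophagosomes to lysosomes, was at 40.5 ± 1.70 and 32.2 ± 0.595 FPKM (SD, n = 3 each; log2 fold change −0.32, edgeR adjusted p = 6.61e-05). Vps33a is on chromosome 5 with Aldh2, so loss of ALDH2 and sequence carried along with the deletion cannot be told apart for it. Whether the same limit holds for other called genes of the lists, such as Gusb and Castor2, was not examined.

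In the promoters of the CLEAR lists, CACGTG was in 18 of 54 (33.3%) and TCACGTG in 17 (31.5%), beside the 7.15% and 3.77% of all promoters. The CLEAR network is named for an element that holds these letters, so higher shares come with the choice of the lists. They are not a result of these libraries. Of the 18 CLEAR genes with CACGTG, 6 rose (Ctsd, Glb1, Lamp1, Naglu, Sgsh and Sumf1) and 1 fell (Vps33a), with a median log2 fold change of 0.11. Of the 28 tested without it in these windows, 5 rose and 1 fell, with a median of 0.06, and whether the groups with and without it differ was not tested. Over all 1126 tested genes with CACGTG in a promoter, 61 (5.42%) rose and 81 (7.19%) fell, with a median of −0.02. The stretches printed are of called genes, chosen after their values were seen to show a single copy (Glb1), the copy of Ctsd nearer its start, the 4 clustered copies of Lamp1 and the pair in Vps33a, which fell. In GRCm38.p6 they are at chr7:142387898-142387947 (minus strand, Ctsd), chr9:114401008-114401057 (plus strand, Glb1), chr8:13159078-13159160 (plus strand, Lamp1) and chr5:123573016-123573065 (minus strand, Vps33a).
Ctsd: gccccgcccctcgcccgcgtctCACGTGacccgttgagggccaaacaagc
Glb1: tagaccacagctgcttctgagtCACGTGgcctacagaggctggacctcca
Lamp1: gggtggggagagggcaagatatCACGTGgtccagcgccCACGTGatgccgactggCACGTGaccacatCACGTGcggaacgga
Vps33a: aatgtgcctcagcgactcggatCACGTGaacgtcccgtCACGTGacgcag
Each is printed 5′ to 3′ on the strand of the gene with CACGTG in capitals. Genes with such copies are thus found among those that rose, those that fell and, as with Fnip1 and Rragc, those that did not pass.

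**Figure D4:**
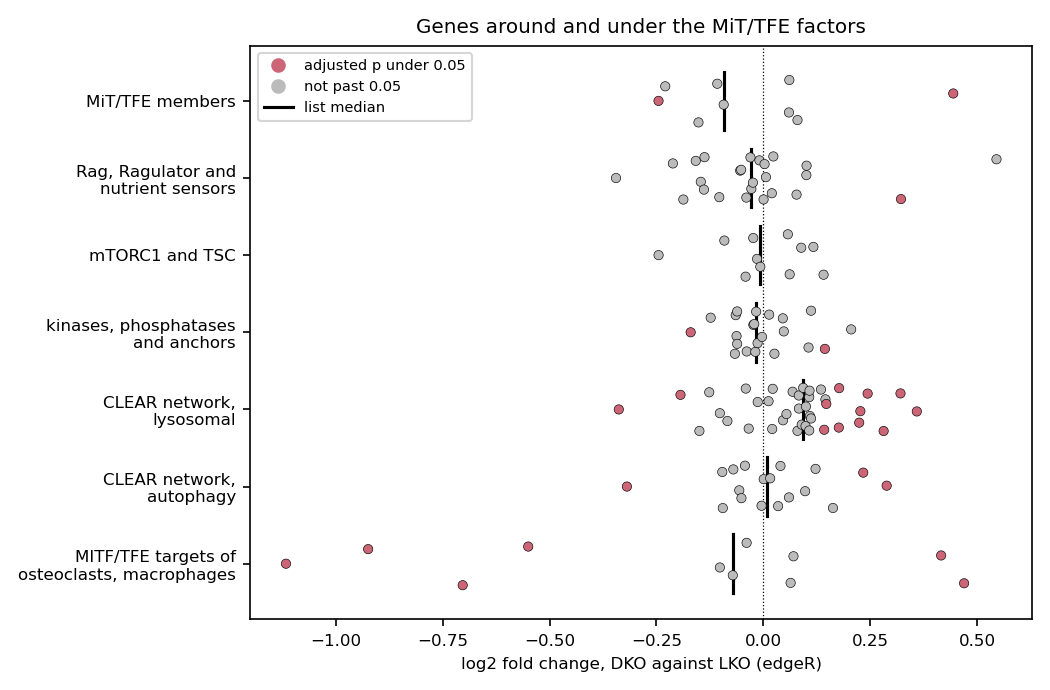
Log2 fold change of DKO against LKO (horizontal axis) for each tested gene of the 9 family genes and of 6 lists around them. Called genes are in red and the median of each list is a line. The lysosomal CLEAR list has 10 red points to the right of 0 and 2 to the left, and the mTORC1 and TSC list has none.

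A last list held genes known as MITF or TFE targets in osteoclasts and macrophages, and here the called genes went both ways. Of 11 tested, 2 rose and 4 fell (54.5% called, beside 14.3% of all genes tested, median log2 fold change −0.07). Gpnmb, a lysosomal glycoprotein gene that MITF and TFE3 switch on in many cells, fell most clearly by p. It was at 53.9, 55.1 and 59.1 FPKM in LKO and at 29.1, 30.4 and 28.5 in DKO. The groups stood far apart, with means of 56.0 ± 2.73 and 29.3 ± 0.985 (SD, n = 3 each) and a log2 fold change of −0.92 (standard error 0.05, edgeR adjusted p = 1.56e-11). Gpnmb and Mitf thus moved in opposite directions between the same libraries.

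Acp5, the gene of tartrate-resistant acid phosphatase, fell from 171 ± 4.10 FPKM in LKO to 104 ± 5.32 in DKO (SD, n = 3 each; log2 fold change −0.70, edgeR adjusted p = 8.82e-10). Met, the receptor gene for hepatocyte growth factor, was at 3.20 ± 0.332 and 2.17 ± 0.306 FPKM (SD, n = 3 each; log2 fold change −0.55, edgeR adjusted p = 0.000868), and unfiltered limma did not call it (adjusted p = 0.0955). Bcl2, a survival gene under MITF in melanocytes, was at 0.557 ± 0.153 and 0.277 ± 0.0586 FPKM (SD, n = 3 each; edgeR adjusted p = 0.00771). Its log2 fold change of −1.12 was not called without DKO replicate 3 (adjusted p = 0.0547) or in unfiltered limma (adjusted p = 0.123), where it was −0.28.

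Csf1r, the receptor for the growth factor that sustains macrophages, rose from 365 ± 21.4 to 484 ± 39.0 FPKM (SD, n = 3 each; log2 fold change 0.42, edgeR adjusted p = 5.7e-06). Atp6v0d2, a proton pump subunit gene of osteoclasts and macrophages, was at 4.66 ± 0.497 and 6.40 ± 0.685 FPKM (SD, n = 3 each; log2 fold change 0.47, edgeR adjusted p = 0.0067). Its call was lost without DKO replicate 1 (adjusted p = 0.0612) and in unfiltered limma. Csf1r is also among the macrophage markers, and Acp5 and Atp6v0d2 among the osteoclast markers. The summed osteoclast markers were at 246 to 256 FPKM in LKO and 213 to 231 in DKO, and of 5 tested 2 rose (Atp6v0d2 and Mmp9) and 1 fell (Acp5). Calcr, Ctsk, Oscar, Ocstamp and Dcstamp, genes of mature osteoclasts, had at most 11 counts in any library. What part any of these cell types had in the changes of the list was not tested.

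Genes near the family members on the chromosome were counted to show whether changed genes lay around them. Of the 20 tested genes nearest to Mitf in gene order, 2 were called, both lower, against a median of 3 over windows of this size. The count was 7 around Fnip1, 4 each around Tfeb, Tfec and Fnip2, 2 around Rragc, 1 each around Flcn and Rragd, and 0 around Tfe3. The rise of Mitf was thus not shared by its called neighbours, and the window with the most called genes was that of Fnip1, which itself did not pass.

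Over the 6 libraries, genes were ranked by how closely their levels, each divided by its LKO mean, followed those of Mitf (root mean square of the log2 differences). Among 10502 genes with a mean of at least 1 FPKM, the 5 nearest were Cep170b (0.0426), Sh3d19 (0.0444), Sass6 (0.0509), Gm12250 (0.0559) and Entpd1 (0.0574). All 5 were called higher in DKO, as a pattern like that of Mitf requires, and Entpd1, the gene of the ATP-degrading enzyme CD39, was at 13.6 ± 0.525 FPKM in LKO and 18.9 ± 0.0513 FPKM in DKO (SD, n = 3 each). Cep170b lost its call in 4 and Sass6 in 8 of the 15 other fits. Within a difference of 0.1 there were 63 genes (0.600%). None of the other family members was called higher in DKO, and a gene without such a rise ranks far from Mitf by this measure. Their ranks, which restate the fold changes above, were 3087 (Tfe3), 3198 (Tfeb), 7251 (Rragc), 8293 (Fnip1), 8311 (Flcn), 9387 (Fnip2) and 9476 (Tfec). Rragd, with a mean under 1 FPKM, was not ranked.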

How the data were processed

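RNA was sequenced from 6 cultures of oxLDL-treated mouse macrophages, 3 LKO and 3 DKO, grouped by their labels. Each deposited file holds, for NCBI gene numbers, a length, an expected count (reads assigned to the gene by the authors, unscaled) and an FPKM value. In 23.2 to 23.6% of genes per library the expected count was not whole, by more than 0.005. The deposited FPKM values are scaled to length and library size, per the file headers. The submitters' processing notes name Bowtie 0.12.2 and mm8. Counting tool and strand setting: not given in the sources used here. Genes that overlap on opposite strands are therefore uncertain. No gene is listed under an FPKM of 0.01, and a gene not listed was set to 0.

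Symbols came from a RefSeq table of GRCm38.p6 (16832 of 16871 numbers matched), used for names and gene order only. Promoter sequences and their coordinates are RefSeq's in that assembly, not in the build of the files. Expected counts were rounded and tested in R 4.3.3 with edgeR 4.0.16 (filterByExpr, TMM, quasi-likelihood test, no block), adjusted over 11809 genes. The biological coefficient of variation was 0.0413, and the fit was tested on simulated data. The standard error is the size of the log2 fold change over the square root of F. Replicates differed by more than sampling noise (chi-square per degree of freedom 1.68 to 3.71 within groups and 8.30 to 14.9 across, over genes with at least 20 reads), so each library was counted. Shares and ratios were tested by exact permutation.

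The members and the lists (205 names, 195 in the files) were chosen with earlier results of these data known, and the CLEAR and target lists come from general knowledge of the pathway. Of each list, all called genes were named where 5 or fewer went in a direction, otherwise the 4 of smallest p; also named were Aldh2 and the 5 genes most like the member of smallest p. Others named were chosen after their values were seen, and a few genes that fall under these criteria are left out here. Alternatives were RLE and upper-quartile scaling, no filter and a replicate block in edgeR, DESeq2 1.42.0, limma 3.58.1 on log2(FPKM + 1) for genes at 1 FPKM or more in at least 3 libraries, limma with a pseudocount of 0.1, without a filter or with quantile normalization, leaving out each replicate, and a threshold of 0.01. On limma's log2(FPKM + pseudocount) scale the fold changes of low genes come out too small.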

Additional observations from a re-analysis of the deposited data

How the results depend on the processing

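With 1689 genes called in total, limma called 1119 with a pseudocount of 0.1, 807 without a filter and 1108 after quantile normalization, and 1005 passed edgeR at a threshold of 0.01. Leaving out each replicate gave totals of 1175 to 1481. The number of family genes called was 2 in every fit except without LKO replicate 3, where Fnip1 made it 3. The replicate block gave 2 family genes and 1553 genes in total. Under it Akt1, Sgsh and Tyr lost their calls (edgeR adjusted p = 0.0521, 0.0608 and 0.0667). No other of the 35 named genes counted below did. The numbers were not taken as pairs, since deviations of same-numbered libraries had correlations of −0.056 to 0.018 across genes and 1 of 3 LKO libraries correlated best with its own number. With a replicate left out, the log2 fold change of Rragd ranged from −0.13 to 0.36 and reversed without LKO replicate 2 (−0.13) and without DKO replicate 1 (−0.02). The DKO minus LKO difference in the log2 ratio of Rragc to Rragd ranged from −0.44 to 0.0193 with a replicate left out (reversed without LKO replicate 2), and that of Rraga to Rragb from −0.43 to 1.06 (reversed without LKO replicate 2, −0.43, LKO replicate 3, −0.12, and DKO replicate 3, −0.00877), where Rragd and Rragb had few counts. Lists, counted under the same fits in an addition made after seeing the data, had 1 to 2 called genes (Rag and sensors), 0 (mTORC1 and TSC), 0 to 2 (kinases), 7 to 13 (lysosomal CLEAR), 2 to 4 (autophagy CLEAR) and 3 to 6 (MITF and TFE targets). The fewest in the lysosomal and target lists came from limma without a filter. Of 35 named genes that passed (Lyz2 was not counted), 18 kept their call in all of the fits that tested them. The other 17 lost it in at least 1. Among those 17, Lamp2 was lost in 4 fits that left out a replicate (adjusted p up to 0.0799), and Sumf1 in 4 limma fits and 2 that left out a replicate (up to 0.113). Lamp1 was lost without DKO replicate 3 (0.0556) and in unfiltered limma (0.104), and Naglu in unfiltered limma (0.064). Adgre1 and Lox were each lost in the 4 limma fits and in 2 that left out a replicate (up to 0.25 and 0.196). Few counts limit Rragd and Rragb, and the cause of the other differences between fits was not tested.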
